A study of Mus musculus with 11 samples.

Results

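The genes described here are the Myc and Max network: 10 genes that encode transcription factors of the basic helix-loop-helix leucine zipper class built around MAX, taken by name (Myc, Mycn, Mycl, Max, Mxd1, Mxd3, Mxd4, Mxi1, Mnt and Mga) from the 25239 genes of the deposited count table. They were chosen by name with the CPM of these same 3 libraries in view, among them the low Myc level of one, so their own levels and folds are a description and carry no test. RNA was sequenced from J1 cells, a line of mouse embryonic stem cells, on day 0. TKO, TKO_FL and TKO_602 are the genotypes as labelled, and each has 1 library. The series title places these cells among mutants of DNA methyltransferases (DNMTs), and other samples of the series spell the first genotype DNMT TKO. All 3 names begin with TKO. The design text writes the others as TKO plus a further element, and neither what these suffixes stand for nor whether a line is 1 clone was found in the labels. All cells grew on mitomycin-treated fibroblast feeders in serum with LIF, the cytokine that holds mouse stem cells undifferentiated. The series also has 8 samples of DNA enriched for methylated or hydroxymethylated cytosine, which were not analysed here.

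MAX is the shared partner of the network. The MYC proteins (MYC, MYCN, MYCL) pair with MAX, bind the DNA element called the E-box, and activate genes of ribosome biogenesis, metabolism and the cell cycle. The MXD proteins, MXI1 (also known as MXD2) and MNT pair with MAX on the same element and recruit corepressors, so they are antagonists of MYC. MGA, the largest member, joins MAX in PRC1.6, a variant Polycomb complex that represses germline genes in embryonic stem cells. In such cells MYC and MYCN support proliferation and self-renewal downstream of LIF and Wnt signals.

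The element through which the network acts can be read in the genome. The canonical E-box CACGTG, a palindrome that reads the same on both strands, was searched in the 250 bases before each gene start of RefSeq (build GRCm38.p6, which shares its chromosome coordinates with mm10). It stood before 1854 of 27025 genes (6.86%), and before 1102 of the 11010 matched genes with at least 1 CPM (reads scaled to a common library total) in one library (10.0%). Of the network genes, 9 of 10 matched an entry, all but Myc, and 2 of the 9 held the element, Mnt and Mxd4. The list of germline genes repressed by PRC1.6 held it in 11 of 20 matched genes (55%), and the list of MYC-induced cell cycle genes in 3 of 13 (23.1%). The windows below show the E-boxes in capitals, 5′ to 3′ on the gene's own strand, for the 2 network genes and for 4 genes of the lists that are described further on. Mnt lies at chr11:74830774-74830833 (plus strand), Mxd4 at chr5:34187897-34187956 (minus strand), Cdk4 at chr10:127063336-127063534 (plus strand), Sycp3 at chr10:88459496-88459576 (plus strand), Stag3 at chr5:138280312-138280371 (plus strand) and Arrdc4 at chr7:68749399-68749458 (minus strand).
Mnt: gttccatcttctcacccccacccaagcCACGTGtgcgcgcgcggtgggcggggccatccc
Mxd4: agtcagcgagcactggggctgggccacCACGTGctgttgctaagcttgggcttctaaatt
Cdk4: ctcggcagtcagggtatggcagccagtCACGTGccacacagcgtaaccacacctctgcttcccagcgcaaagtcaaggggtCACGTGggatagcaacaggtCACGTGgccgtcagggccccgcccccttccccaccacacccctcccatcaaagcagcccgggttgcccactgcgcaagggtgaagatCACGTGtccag
Sycp3: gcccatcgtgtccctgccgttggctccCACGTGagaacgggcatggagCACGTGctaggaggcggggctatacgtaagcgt
Stag3: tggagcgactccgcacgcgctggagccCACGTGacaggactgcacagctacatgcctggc
Arrdc4: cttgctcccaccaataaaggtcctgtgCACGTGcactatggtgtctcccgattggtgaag
The first base of the element lay 123 bases before the start of Mnt, 219 before Mxd4, 170 before Stag3 and 193 before Arrdc4. Sycp3 held 2, at 64 and 43 bases, and Cdk4 held 4, at 172, 118, 98 and 11 bases. A match describes the letters only, and its absence says nothing of binding elsewhere in a gene. CpG, the dinucleotide that DNMTs methylate, was more frequent before the network genes than over all genes. The median of the 9 was 18 per window, against 6 over all genes. It was nearer to the 15.5 of the genes with at least 1 CPM. Mycl (14), Mxi1 (13), Mxd4 (13) and Mycn lay below that last value. Mxd1 had the most (32) and Mycn the fewest (11).

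**Figure D1:**
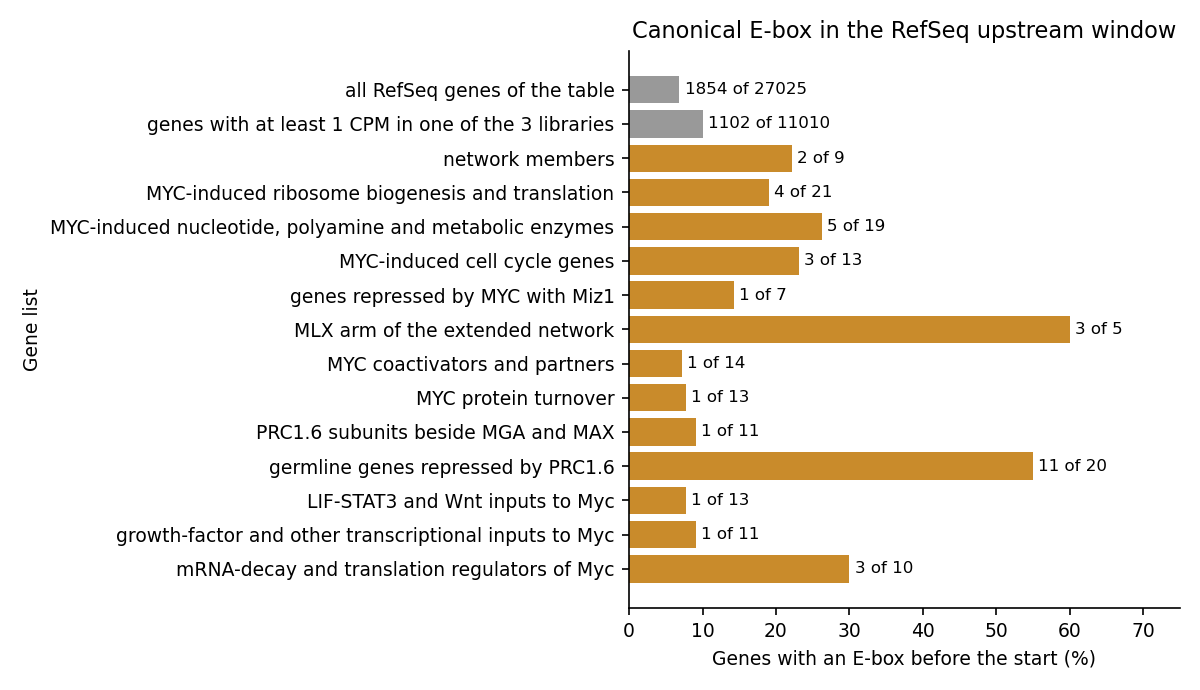
Horizontal bars give the percentage of genes with at least 1 canonical E-box in the RefSeq window before the start, for all genes and measured genes (grey) and for the network and its gene lists (orange), with the counts beside each bar. The germline list stands at 55% and the MLX list at 60% of only 5 genes. All genes stand at 6.86%, and those with at least 1 CPM in one library at 10.0%.

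Reads assigned to genes totalled 21133660 for TKO, 19573689 for TKO_FL and 43158441 for TKO_602. Dnmt1 stood at 159, 3364 and 2444 CPM in the same order. Markers of naive pluripotency were high in all 3 libraries, with the 10 fixed markers summing to between 4505 and 5766 CPM and none at 0. The sums do not show single markers, whose folds are given with the other marker lists below. The file headers place the alignment of TKO_602, the library with the most reads, in a folder of its own. A folder does not say whether the library was made or sequenced apart. If it was, genotype and batch cannot be told apart in both of its comparisons. With 1 library per genotype no difference has a replicate check. The intervals are 95% exact binomial intervals of a ratio of counts and cover counting error only. The 3 comparisons share libraries with each other, so their values are set side by side and are not independent.

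Myc, the founding member, was the one with the largest difference. It is read on chromosome 15, positions 61985341 to 61990361 of mm10 on the plus strand, from 3 exon blocks. The table held 1009 Myc reads in TKO, 683 in TKO_FL and 157 in TKO_602. After scaling to CPM with TMM factors, which correct library totals for composition, the levels were 48.7, 35.5 and 3.50 CPM. TKO and TKO_FL were thus close to each other, and TKO_602, the deepest library, stood far below both. TKO_602 had 13.9-fold less Myc than TKO (interval 10.9 to 17.9) and 10.1-fold less than TKO_FL (7.91 to 13.1). On the log2(CPM + 1) scale used for all counts of genes below, the folds were -3.46 and -3.02, and 6 of 13748 and 4 of 13683 measured genes, Myc included, were at least as low in these comparisons. TKO_FL stood at a log2 fold of -0.45 against TKO, with a ratio of 0.729 (interval 0.634 to 0.838). In bulk RNA, fewer cells with Myc transcripts and fewer transcripts per cell cannot be told apart.

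Mycn, the paralogue that dominates in pluripotent and early embryonic cells, took the largest part of the family in every library. It lies on chromosome 12 (12936093 to 12941836, minus strand). Its levels were 288 CPM for TKO, 430 for TKO_FL and 189 for TKO_602, so that TKO_FL was the highest and TKO_602 the lowest. TKO_602 had 2.27-fold less than TKO_FL (interval 2.17 to 2.37; log2 fold -1.18) and 1.52-fold less than TKO (1.45 to 1.59; log2 fold -0.60). TKO_FL had 1.49-fold more than TKO (1.42 to 1.56). Mycl, the third paralogue (chromosome 4, 122995931 to 123002480, plus strand), was low and highest in TKO_602. TKO had 18.8 CPM of it, TKO_FL 16.1 and TKO_602 23.9. TKO_602 held 1.27-fold more Mycl than TKO (1.08 to 1.51) and 1.48-fold more than TKO_FL (1.24 to 1.78), while the interval of TKO_FL against TKO included no difference (0.690 to 1.07).

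Max itself, without which most of the other members cannot bind DNA, varied little. Max (chromosome 12, 76937269 to 76962248, minus strand) stood at 79.8 CPM (TKO), 88.7 CPM (TKO_FL) and 71.5 CPM (TKO_602). The largest ratio was that of TKO_FL to TKO_602, 1.24 (interval 1.14 to 1.35). Mga (chromosome 2, 119897228 to 119969581, plus strand) was as even, with 359, 370 and 420 CPM. Its 24 exon blocks span 13931 exonic bases, which is why a level per length well below that of Mycn gives one of the highest read counts of the network. TKO_602 had 1.17-fold more Mga than TKO (1.13 to 1.22), and TKO_FL was at 1.03-fold (0.984 to 1.08).

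The antagonists each had their own pattern. Mxi1 (chromosome 19, 53310506 to 53373293, plus strand) was highest where Myc was lowest: 46.7 CPM for TKO, 42.1 for TKO_FL and 77.8 for TKO_602. That is 1.66-fold more in TKO_602 than in TKO (interval 1.50 to 1.84) and 1.85-fold more than in TKO_FL (1.66 to 2.06). Mnt (chromosome 11, 74830924 to 74845725, plus strand), the antagonist expressed in cycling as well as resting cells and one of the 2 members with an E-box in its upstream window, peaked in TKO_FL instead. It had 59.1, 102 and 67.1 CPM, so TKO_FL was 1.72-fold above TKO (1.55 to 1.90) and TKO_602 1.14-fold above TKO (1.03 to 1.25). Mxd3 (chromosome 13, 55325170 to 55329731, minus strand), the MXD gene of proliferating cells, was highest in TKO, with 14.8 CPM there against 9.83 in TKO_FL and 9.33 in TKO_602. The ratio to TKO was 0.663 in TKO_FL (0.508 to 0.862) and 0.629 in TKO_602 (0.508 to 0.780). Of the exonic length of Mxd3, 7.94% overlaps Prelid1, and per the file headers no option to count reads in overlaps was set. None of the other 9 members overlapped the exons of another gene.

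The remaining MXD genes, both known for differentiating cells, were low and even. Mxd1 (chromosome 6, 86647045 to 86669159, minus strand) had 10.5, 12.1 and 10.6 CPM. Mxd4 (chromosome 5, 34176580 to 34187710, minus strand), which also holds an E-box in its upstream window, had 6.04, 8.22 and 6.54 CPM, on 125, 158 and 293 reads. For Mxd1 and Mxd4 the counting intervals of all 3 ratios included 1. That of Mxd4 in TKO_FL against TKO ran from 0.965 to 1.93, so a difference of nearly 2-fold is not excluded at this depth.

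Counted over the network, 0 of 10 members were at least 2-fold apart between TKO_FL and TKO, where 5.74% of 13563 measured genes were. Between TKO_602 and TKO, 1 of 10 was (Myc, lower), where 19.0% of all genes were. Between TKO_602 and TKO_FL, 2 of 10 were (Myc and Mycn, lower), where 11.6% were (4.87% lower and 6.75% higher). All 10 members passed the filter of 1 CPM in one library of the pair. The median log2 fold of the members was 0.10, 0.05 and -0.24 in the 3 comparisons, beside 0.00, 0.03 and 0.03 over all measured genes. By count, the network was therefore near the background of these libraries, and the members past 2-fold were of the MYC family.

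**Figure D2:**
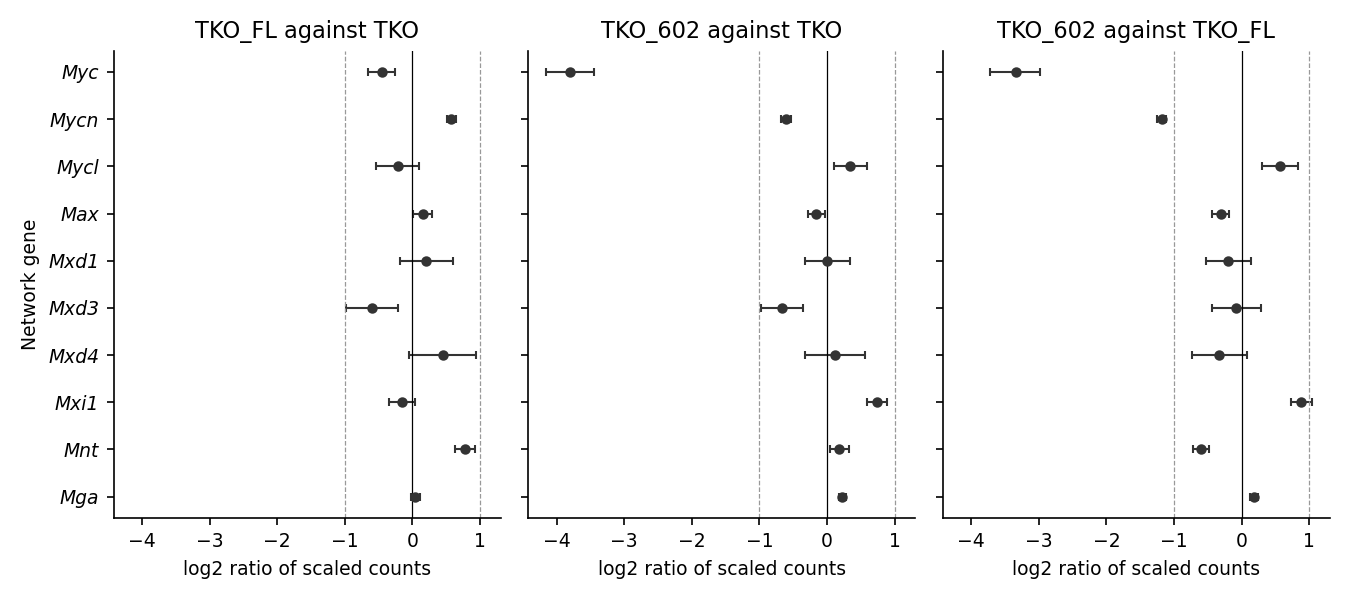
Points give the log2 ratio of scaled counts, with no pseudocount, for each network gene in each of the 3 comparisons; bars are 95% exact intervals for counting error, the solid line marks no difference and dashed lines mark 2-fold. Myc lies far to the left in both comparisons of TKO_602 and Mycn passes 2-fold in TKO_602 against TKO_FL, while the other members stay within the dashed lines apart from interval ends.

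To compare genes with each other, levels per length were computed from the reads as TPM, which divides by exonic length before scaling to a common total. In TKO the order from high to low was Mycn (243 TPM), Max (74.3), Mga (56.4), Myc (44.5), Mnt (28.2), Mxi1 (26.8), Mxd3 (25), Mycl (11.2), Mxd4 (11.2) and Mxd1 (4.94). In TKO, Mnt did not differ from Mxi1 beyond counting error, nor Mxi1 from Mxd3, nor Mycl from Mxd4. In TKO_FL, Mycn led at 363 TPM and Mnt (48.6 TPM) stood above Myc (32.5 TPM). In TKO_602, Mycn was again first (168 TPM), Max (70.0) and Mga (69.5) did not differ beyond counting error, and Myc came last at 3.36 TPM, below Mxd1 at 5.21 (ratio 1.55, interval 1.20 to 2.03). Myc thus went from the fourth place to the last.

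**Figure D3:**
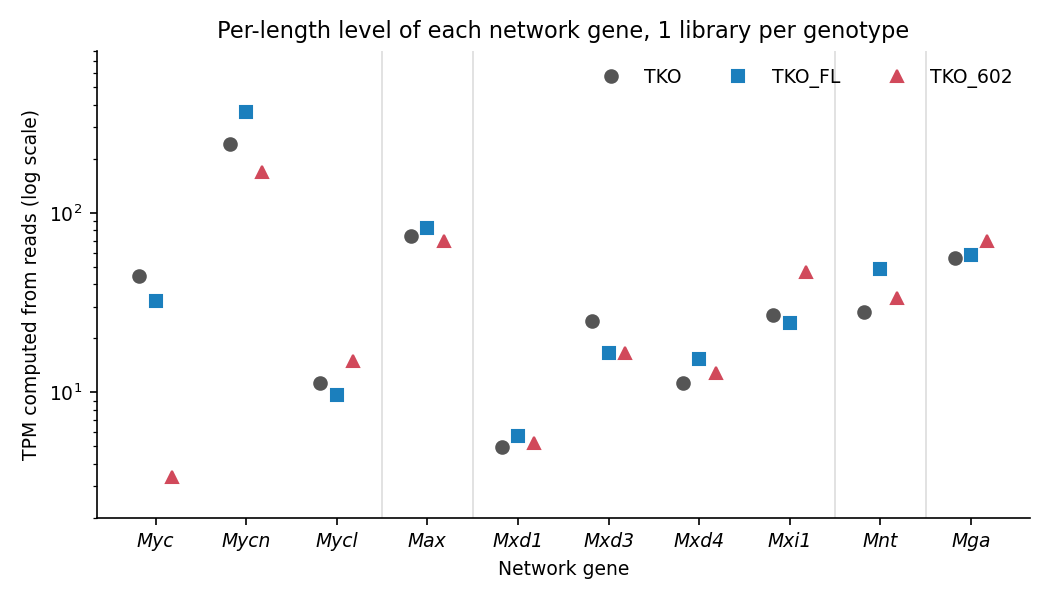
Points give the TPM computed from reads (log axis) for each network gene in the TKO (circles), TKO_FL (squares) and TKO_602 (triangles) libraries, with vertical lines between the roles. Mycn is the highest gene in all 3 libraries, and the Myc point of TKO_602, at 3.36, lies apart from the other Myc points at 44.5 and 32.5.

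The make-up of the MYC family and its weight against the antagonists differed between the libraries on this TPM scale. Myc made up 14.9% of the summed MYC family in TKO, 8.01% in TKO_FL and 1.80% in TKO_602, while Mycn made up 81.4%, 89.6% and 90.1%. Mycn exceeded Myc 5.47-fold in TKO, 11.2-fold in TKO_FL and 50.0-fold in TKO_602 (interval 40.0 to 62.5). The family summed to 299 TPM for TKO, 405 for TKO_FL and 186 for TKO_602. The 4 MXD family genes and Mnt together summed to 96.2, 110 and 115 TPM. The ratio of the MYC family to these antagonists was 3.11 in TKO (2.90 to 3.33), 3.67 in TKO_FL (3.45 to 3.91) and 1.62 in TKO_602 (1.55 to 1.69). The interval of the TKO_602 ratio lay below those of the other libraries, and Mxi1 and Mnt supplied 70.0% of its antagonist sum, against 57.2% in TKO and 65.9% in TKO_FL. All 9 partners together exceeded Max 6.08-fold in TKO, 6.94-fold in TKO_FL and 5.30-fold in TKO_602. These are ratios of transcripts, and protein levels were not measured.

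**Figure D4:**
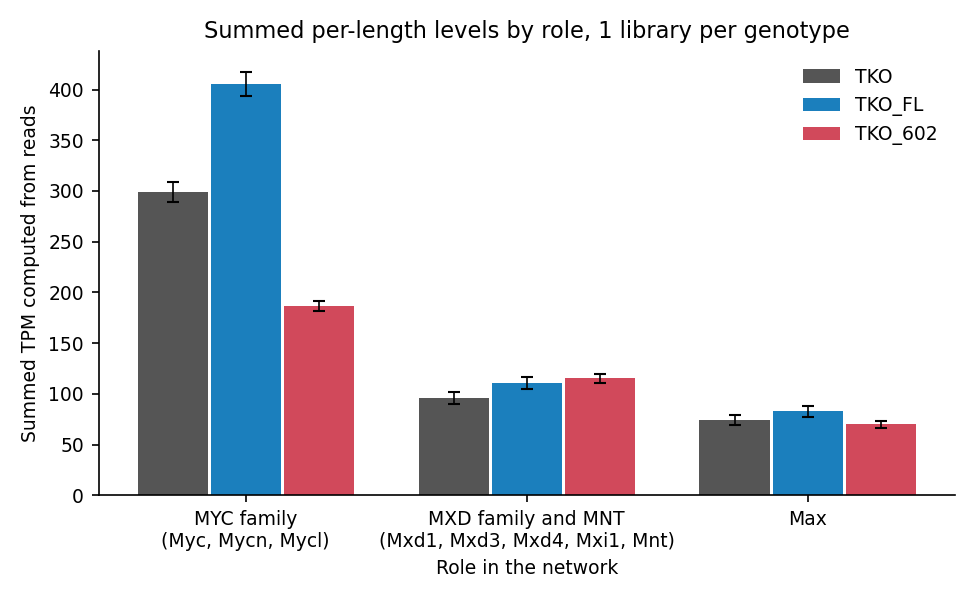
Bars give the summed TPM computed from reads for the MYC family, for the MXD family with Mnt, and for Max in the 3 libraries; error bars are 95% intervals for counting error. The MYC family bar of TKO_602 (186) is the lowest of the 3, whereas its bar for the MXD family with Mnt (115) is the highest.

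Genes that MYC is known to induce were taken from 3 lists. Ribosome biogenesis and translation genes were lower in TKO_602: 7 of 25 were at least 2-fold below TKO and none above, where 8.06% of all measured genes were lower. Their median log2 fold was -0.89, and 24 of the 25 lay below 0, beside 48.0% of all genes. Against TKO_FL the same number lay below 0, beside 47.7% of all genes (median -0.61). There, 1 of 25 was at least 2-fold lower and 0 higher, beside 4.87% lower and 6.75% higher of all genes. Utp20, of the small-subunit processome, had 371, 254 and 140 CPM in the order TKO, TKO_FL, TKO_602. Bop1, of the PeBoW complex that matures the large subunit, had 181, 127 and 68.9 CPM, and Polr1b, a subunit of RNA polymerase I, had 184, 140 and 74.7 CPM. Nop16, a nucleolar protein gene, had 106, 72.8 and 43.9 CPM. In each of these genes TKO_FL lay between the other libraries. TKO_FL itself had a median of -0.28 against TKO, with 0 of 25 genes at least 2-fold apart beside 2.50% lower and 3.24% higher of all genes.

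Nucleotide, polyamine and other metabolic enzymes that MYC induces had fewer members past 2-fold. Of 22, 4 were at least 2-fold lower in TKO_602 than in TKO and none was higher (median -0.35), beside 8.06% lower and 11.0% higher of all genes. The 4 included Odc1, the rate-limiting enzyme of polyamine synthesis, with 1003, 770 and 240 CPM in the same order (log2 fold -2.06, interval of the ratio -2.11 to -2.02). Srm, the next enzyme of that pathway, had 353, 226 and 118 CPM. The mitochondrial chaperone gene Hspd1 had 1867, 1411 and 690 CPM, and the nucleotide kinase gene Nme1 165, 145 and 63.1 CPM. Both polyamine enzymes were thus lowest in TKO_602. The purine synthesis enzymes on the list did not share a pattern. Ppat, the first committed enzyme, had 225, 185 and 147 CPM, Gart 446, 442 and 410, Paics 604, 659 and 669, and Impdh2, of guanine nucleotide synthesis, 335, 351 and 451 CPM.

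Cell cycle genes on the third list were lower for 6 of 15 members in TKO_602 against TKO, with none 2-fold higher (median -0.72), beside 8.06% lower and 11.0% higher of all genes. The D-type cyclin Ccnd2 had 94.8, 44.2 and 19.5 CPM in TKO, TKO_FL and TKO_602, and Ccnd1 150, 98.7 and 35.6 CPM. Ccne1, the cyclin of S phase entry, had 329, 178 and 135 CPM. Cdk4, the kinase partner of the D cyclins and the gene with 4 E-boxes above, had 495, 409 and 233 CPM. Id2 had 14.7, 21.3 and 7.45 CPM, lowest in TKO_602 but highest in TKO_FL. Against TKO_FL, 4 of the 15 were at least 2-fold lower in TKO_602 and none was higher, beside 4.87% lower and 6.75% higher of all genes.

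Genes listed as repressed by MYC with its partner MIZ1 differed in direction with the comparison. The part of MIZ1 in each of them was not tested. Of 13, TKO_602 had 1 at least 2-fold above TKO and 1 below (median -0.10), beside 11.0% higher and 8.06% lower of all genes. TKO_FL had 1 above TKO and 2 below (median -0.33), beside 3.24% and 2.50%. Against TKO_FL, TKO_602 had 3 above and 0 below, beside 6.75% and 4.87%. The median of that comparison was 0.33, with 11 of 13 above 0, beside 52.3% of all genes. Ndrg2 had 19.5, 46.0 and 70.8 CPM in TKO, TKO_FL and TKO_602. Cdkn1b, the p27 inhibitor of cyclin-dependent kinases, had 25.4, 22.9 and 46.9 CPM. The one lower in TKO_602 than in TKO was Gata6, a primitive endoderm factor (21.7, 1.56 and 10.0 CPM), and Clu had 37.9, 8.79 and 23.7 CPM.

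The MLX arm of the extended network, in which MLX pairs with the glucose-sensing factors MLXIP and MLXIPL, had a median of the opposite sign to the MYC-induced lists. The list holds these factors beside Txnip, Arrdc4 and Klf10. In TKO_602, 3 of 6 genes were at least 2-fold above TKO and none was below (median 1.08, beside 11.0% of all genes). Of the factors, only Mlxipl was among the 3. Against TKO_FL, 1 of 6 was at least 2-fold higher and 0 lower (median 0.54), beside 6.75% and 4.87% of all genes. Mlxipl had 12.4, 19.1 and 34.5 CPM in TKO, TKO_FL and TKO_602. The arrestin-related target genes Txnip and Arrdc4, of which the latter holds the E-box shown above, had 139, 152 and 328 CPM and 48.3, 76.0 and 125 CPM. Mlx itself was lower, with 48.7, 42.0 and 33.2 CPM.

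**Figure D5:**
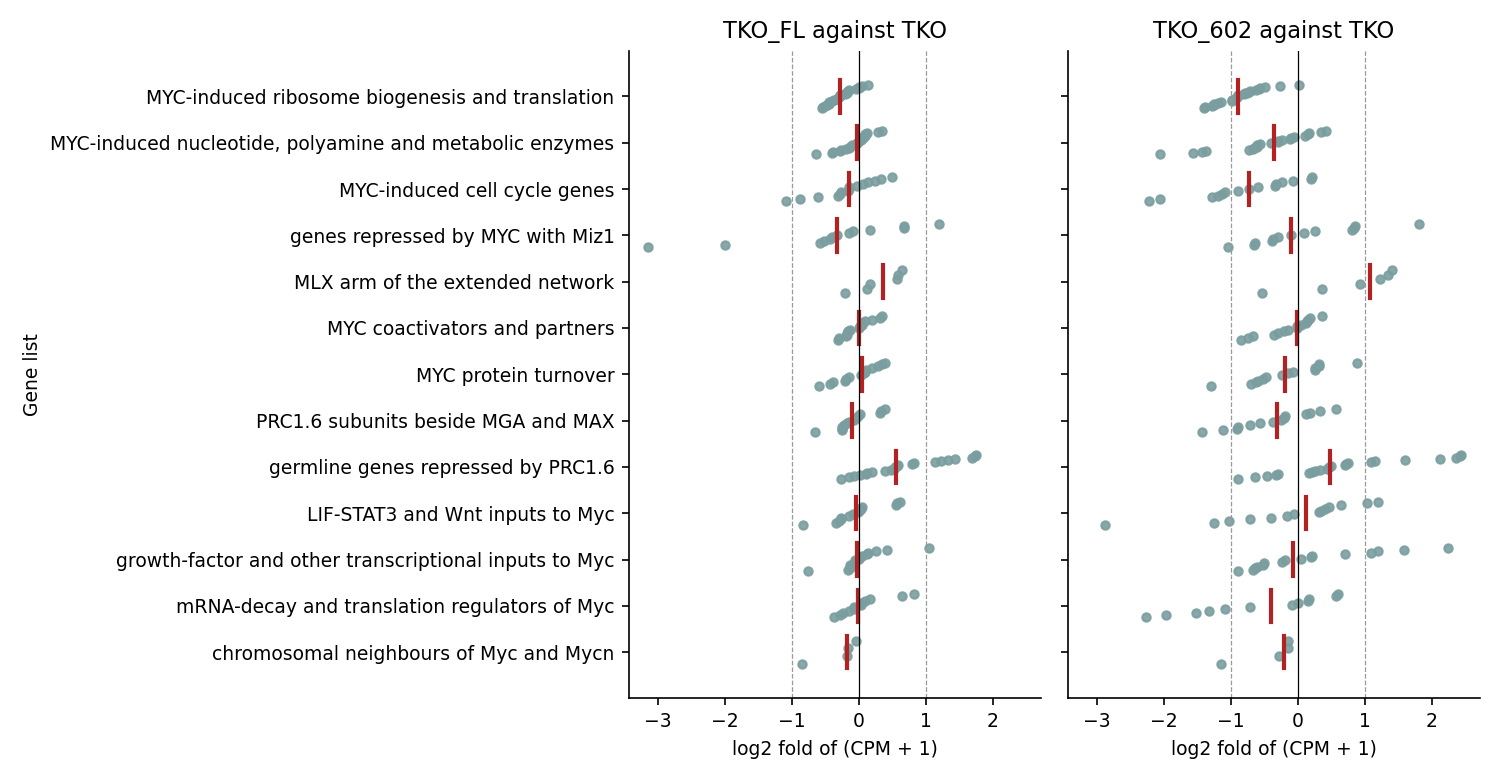
Points give the log2 fold of (CPM + 1) of each measured gene of the 13 lists, for TKO_FL against TKO (left) and TKO_602 against TKO (right); red bars are list medians and dashed lines mark 2-fold. In TKO_602 the 3 MYC-induced lists have medians of -0.89, -0.35 and -0.72 and the MLX list of 1.08.

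MGA and MAX were read together with the rest of PRC1.6. Of the other 14 subunit genes, 2 were at least 2-fold lower in TKO_602 than in TKO and none was higher, near the 8.06% lower and 11.0% higher of all genes. They were Tfdp1, the dimer partner of E2F6 (301, 192 and 111 CPM in TKO, TKO_FL and TKO_602), and L3mbtl2, a chromatin reader of the complex (276, 245 and 126 CPM). Pcgf6, the subunit that defines it, had 95.6, 80.5 and 58.2 CPM, and E2f6 32.3, 26.9 and 24.8 CPM. No subunit was 2-fold apart between TKO_FL and TKO, where 5.74% of all genes were.

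Germline genes that PRC1.6 represses were higher in TKO_FL and TKO_602 than in TKO for a part of the list. Of 22, 7 were at least 2-fold higher in TKO_FL than in TKO (median 0.56, beside 3.24% of all genes), 7 in TKO_602 than in TKO (median 0.48, beside 11.0%), and none was at least 2-fold lower in either on the log2(CPM + 1) scale. With a pseudocount of 0.1 CPM, 1 of the 22 was at least 2-fold lower in TKO_602 than in TKO. Against TKO_FL, TKO_602 had 0 of 22 at least 2-fold higher and 2 lower, beside 6.75% and 4.87% of all genes. The median of that comparison was -0.01, with 11 members above 0 and 11 below, beside 52.3% of all genes above 0. Both lower calls were lost with a pseudocount of 5 CPM. Sycp3, of the synaptonemal complex, whose upstream window holds 2 E-boxes, had 2.03, 9.15 and 15.4 CPM. Stra8, which opens meiosis, had 4.97, 18.3 and 30.9 CPM, and the cohesin gene Smc1b 24.5, 62.9 and 110 CPM. Stag3, another meiotic cohesin gene with an E-box above, had 77.1, 113 and 166 CPM. Most of the higher genes lacked the element in the upstream window. Of those at least 2-fold higher in TKO_FL than in TKO, only Sycp3 held it, and Stra8, Smc1b, Meioc, Sohlh2, Cpeb1 and Tdrkh did not. Of those higher in TKO_602 than in TKO, only Sycp3 and Stag3 held it. Members in which TKO_602 was lower included Slc25a31, which had 5.31, 6.24 and 2.41 CPM, and Tex11, with 9.75, 14.0 and 5.94 CPM.

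Regulators that act on Myc transcription or its mRNA were read in 3 lists. Among LIF-STAT3 and Wnt genes, TKO_602 had 2 of 14 at least 2-fold above TKO and 3 below, beside 11.0% and 8.06% of all genes. With a pseudocount of 5 CPM, 1 was above and 1 below. Socs3, a feedback target of STAT3, had 108, 165 and 249 CPM in TKO, TKO_FL and TKO_602, and Tcf7 64.7, 95.5 and 133 CPM. The lower ones were Lef1 (50.9, 42.4 and 6.07 CPM), the Wnt target Axin2 (19.0, 14.8 and 7.41 CPM) and Tcf7l1 (81.1, 76.5 and 39.2 CPM). Of the growth-factor and other transcriptional inputs, 4 of 16 were at least 2-fold higher and none lower, beside the same shares of all genes: Fos (76.1, 159 and 364 CPM), Egr1 (145, 194 and 438 CPM), Foxo3 (24.2, 21.6 and 52.5 CPM), whose product opposes MYC function, and Klf4 (155, 169 and 356 CPM). Regulators of mRNA decay and translation had 5 of 12 members at least 2-fold lower in TKO_602 than in TKO and none higher, beside 8.06% lower and 11.0% higher of all genes. Lin28b, which blocks let-7 maturation, had 74.2, 62.9 and 14.6 CPM, Lin28a 503, 387 and 200 CPM, and Igf2bp1, which binds and stabilises Myc mRNA, 664, 598 and 311 CPM. Dgcr8, of the microRNA processor, had 80.0, 76.4 and 19.7 CPM, and the RNA-binding protein gene Hnrnpd 628, 519 and 219 CPM.

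Of the 15 genes for coactivators of the MYC protein, none was 2-fold apart in any of the 3 comparisons, where 5.74%, 19.0% and 11.6% of all genes were. The widest was Ruvbl1 (212, 170 and 118 CPM), a helicase subunit of the TIP60 complex. Among the turnover genes, Fbxw7, the ubiquitin ligase receptor that degrades MYC, had 39.4, 52.1 and 47.2 CPM, and Usp28, which counteracts it, 254, 311 and 472 CPM.

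Of the genes near Myc and Mycn on their chromosomes, 4 were measured, and 1 of them was at least 2-fold lower in TKO_602 than in TKO, beside 8.06% of all genes. Pvt1, the long noncoding RNA gene next to Myc, had 11.7, 10.3 and 9.53 CPM in TKO, TKO_FL and TKO_602, and its ratio interval for TKO_602 against TKO (log2 -0.63 to 0.03) excluded the size of the Myc difference. The lower one was Lratd2, on the chromosome of Myc, with 9.51, 4.84 and 3.77 CPM, and it was no longer past 2-fold with a pseudocount of 5 CPM. Next to Mycn, Ddx1 had 309, 300 and 279 CPM and Nbas 36.2, 32.1 and 32.7 CPM.

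The genes whose pattern over the 3 libraries was most like that of Myc, by the Euclidean distance of centred log2(CPM + 1) values among 10979 genes with at least 5 CPM in one library, were Pou4f2, Serpinb9b, Ntn1, Slc7a7 and Il1rl1. Pou4f2, a POU-domain factor of neurons, was the nearest at a distance of 0.12, with 18.1, 11.6 and 0.714 CPM in TKO, TKO_FL and TKO_602. Ntn1, the guidance cue netrin, had 52.9, 30.1 and 4.04 CPM, and the amino acid transporter gene Slc7a7 110, 82.2 and 12.3 CPM. With 3 libraries, such likeness rests on 3 values per gene.

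Markers of other cell states differed between the same libraries. The 6 formative and primed pluripotency markers summed to 233, 164 and 54.7 CPM for TKO, TKO_FL and TKO_602, in the order of Myc. The 8 primitive endoderm markers summed to 379, 44.3 and 72.8 CPM, and the 10 fibroblast feeder markers to 582, 316 and 457 CPM. No marker of these lists was at 0 in any library. At least 2-fold lower in TKO_602 than in TKO were 5 of 6 formative, 7 of 8 endoderm and 3 of 10 feeder markers, beside 8.06% of all genes. In TKO_FL against TKO these were 1 of 6 formative, 8 of 8 endoderm and 4 of 10 feeder markers, beside 2.50% of all genes. That formative marker was Dnmt3b, itself a DNMT gene, with 71.7, 34.0 and 11.9 CPM in TKO, TKO_FL and TKO_602. Whether the DNMT mutations of these cells bear on its level was not tested. The naive pluripotency markers differed too. Of 10, TKO_602 had 3 at least 2-fold above TKO (Tfcp2l1, Klf4 and Tbx3) and 0 below, beside 11.0% and 8.06% of all genes. Against TKO_FL, TKO_602 had 2 above and 1 below (Zfp42), beside 6.75% and 4.87%. TKO_FL had 0 of 10 at least 2-fold apart from TKO, beside 5.74%. The part of all these markers in the values of the network genes was not tested.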

How the data were processed

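Read counts per gene of 3 RNA-seq libraries (poly(A)-selected, 1 per genotype) were used. Samples were grouped by their titles. Per the file headers, the authors made the count table with featureCounts 2.0.6 in paired mode on the mm10 RefSeq annotation, with no strand option and no option to count pairs, so the deposited counts are of reads, each mate alone, and antisense overlaps are not resolved by strand. Per the submitters' processing notes, Trim Galore, HISAT2, SAMtools and Subread were also used. The authors' deposited gene signal table, named TPM, sums to 10 times the total of TPM. It was divided by 10, covers TKO and TKO_FL, and served as an alternative. A further 11 library columns in each table fit no sample's labels and were left out. The repeat table was not used here.

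Counts were scaled to CPM with TMM factors (0.980, 0.983 and 1.04), using numpy 2.4.6, scipy 1.17.1 and pandas 2.3.3 under Python 3.11.15. The largest difference from the factors of edgeR 4.0.16 was 0. Log2 folds used a pseudocount of 1 CPM, which understates folds of low genes, over genes with at least 1 CPM in one library of the pair, with a threshold of 2-fold. No test between genotypes was possible with 1 library each. Exact intervals used reads divided by 2, as mates share a fragment. Intervals of summed TPM used the delta method on the same counts. The fold and interval steps were tested on simulated data. The members and the 13 gene lists with 4 marker lists (223 genes, 6 of them on 2 lists) were chosen with earlier results of these data known. Genes are named by rule: all members, up to 4 per list with the largest fold in any comparison and others needed to say what a list holds, and the 5 nearest to Myc, predicted and accession-like symbols left out. Cdk4, Ppat, Impdh2, Paics, Gart, Mlx, Pcgf6, E2f6, Stag3, Slc25a31, Tex11, Tcf7, Igf2bp1 and Fbxw7 were added for their role or position after values were seen. Sequences are from RefSeq, GRCm38.p6. Alternatives were other pseudocounts, filters, scalings and the TPM table.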

Additional observations from a re-analysis of the deposited data

How the results depend on the processing

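The member counts kept their values under every alternative that was run: 0 of 10 for TKO_FL against TKO, 1 of 10 for TKO_602 against TKO and 2 of 10 for TKO_602 against TKO_FL. The log2 fold of Myc ranged from -3.76 to -2.66 in TKO_602 against TKO and from -3.31 to -2.25 against TKO_FL over 6 alternatives, and that of Mycn against TKO_FL from -1.19 to -1.10. Among the members, signs turned for 2 folds near 0, those of Mxd1 in TKO_602 against TKO (-0.01 to 0.08) and of Mxd3 in TKO_602 against TKO_FL (-0.08 to 0.00). The background counts depended on the pseudocount. The 779 genes at least 2-fold apart between TKO_FL and TKO became 1474 with a pseudocount of 0.1 CPM and 175 with 5 CPM. With 5 CPM the 2614 genes of TKO_602 against TKO became 1212 and the 1591 of TKO_602 against TKO_FL became 618. With 5 CPM, the LIF-STAT3 and Wnt list had 1 lower and 1 higher member in TKO_602 against TKO. The calls of Lratd2 in TKO_602 against TKO and of the 2 lower germline genes in TKO_602 against TKO_FL were lost with 5 CPM, and 1 germline gene was called lower in TKO_602 against TKO with 0.1 CPM. The lower MIZ1 list member, Gata6, was no longer called with 5 CPM or with library totals alone. No paired analysis was possible because each genotype has 1 library. Depth limits the low members most: Mxd4 rests on 125 reads in TKO and Myc on 157 in TKO_602.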
